A study of Drosophila melanogaster with 4 samples.

Results

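The widest stretches of dMi-2 enrichment in the late Drosophila melanogaster embryo are described here, 360 broad domains that each span 7 kb or more. They were chosen by width in the authors' combined list of enriched regions. A domain is a line of that list on 2L, 2R, 3L, 3R, 4 or X that is at least 7000 bp wide and overlaps, by at least 1 bp, a region called in each of the 2 ChIP replicates. The combined list held 9388 regions in all, 9341 of them on these 6 arms. Both the widths and the overlaps therefore belong to the choice of members and are given as descriptions without a test.

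The data come from chromatin immunoprecipitation followed by sequencing on embryos aged 14 to 16 h of the wild-type strain Oregon-R (Oregon-R-modENCODE). Formaldehyde-fixed chromatin was precipitated with the antibody Q4443 against dMi-2, and each of the 2 ChIP libraries had its own input DNA library as the authors' control. No treatment or mutant was part of the design. Whole embryos mix many cell types, so enrichment in few cells and weak enrichment in many cannot be told apart. The labels leave unstated if different embryo collections were used for the replicates, whose spread may be technical in part. The 3 lists of regions used are in FlyBase release 5 coordinates, 1 for each replicate and 1 combined, each with a start, an end and a score per region. The scores are the authors' own. Their scale is not named, so they are read only within a list.

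Mi-2 proteins are ATP-dependent nucleosome remodellers of the CHD family, which slide nucleosomes along DNA. In Drosophila, dMi-2 is the remodelling subunit of the NuRD complex, which also carries a histone deacetylase, and of the dMec complex, in which it is paired with the zinc-finger protein MEP-1. It has been linked both to gene repression and to active transcription, and on induced heat shock genes it has been described along the transcribed body rather than at the promoter alone. Regions are named by position only, because no gene annotation of release 5 was used here.

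Broad domains were few among the dMi-2 regions but made up a sizeable part of the enriched sequence. On the 6 arms, 365 regions of the combined list (3.91%) were at least 7 kb wide. Of these 365, 360 overlapped both replicates, whereas 31.9% of all 9341 regions did. As a wider region overlaps more easily and overlap with both is part of the rule, nothing is read from that difference. The other 5 wide regions had no region in replicate 1 but 1 or 2 in replicate 2. They lay on 2R at 3506862 to 3517106 (10.2 kb) and 18792090 to 18799548 (7.5 kb), and on 3L at 1201980 to 1209792 (7.8 kb), 11543438 to 11551182 (7.7 kb) and 21033066 to 21040538 (7.5 kb). No region of this width lay outside the 6 arms.

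Together the 360 domains covered 3.52 Mb, which is 13.9% of the 25.26 Mb of combined-list sequence on the arms and 2.92% of the arms' length. The median width was 8.81 kb, with quartiles of 7.75 and 10.4 kb. Only 99 domains reached 10 kb, 22 reached 15 kb and 6 reached 20 kb, so most members lie not far above the threshold.

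The threshold itself cuts through a continuous range of widths. The narrowest members were on 3R at 27546398 to 27553414 (7017 bp, score 0.858), on 2R at 14457166 to 14464184 (7019 bp, score 0.617) and on 3R at 10915022 to 10922040 (7019 bp, score 0.528). Just below it lay regions on X at 13122988 to 13129974 (6987 bp, score 0.472), on 3R at 627446 to 634428 (6983 bp, score 0.611) and on 3L at 15490994 to 15497968 (6975 bp, score 0.478).

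The arms differed in how many broad domains they carried. Arm 2R held 84 domains, or 3.97 per Mb, and X held 81, or 3.61 per Mb. Arm 3R followed with 89 (3.19 per Mb) and 3L with 64 (2.61 per Mb), while 2L held 42 (1.83 per Mb). Chromosome 4, the small and largely heterochromatic one, held none. Its widest region in both replicates was 4813 bp, at 525162 to 529974.

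All dMi-2 regions together were spread more evenly. Over all combined-list regions the arms other than 4 ranged from 71.2 per Mb on 2L to 86.9 on 2R, a narrower range than for broad domains. The share of an arm's regions that were broad was 2.56% on 2L (95% exact binomial interval 1.85 to 3.45), 3.37% on 3L (2.60 to 4.28), 4.09% on 3R (3.29 to 5.00), 4.57% on 2R (3.66 to 5.63) and 4.63% on X (3.69 to 5.72). The intervals of 2L do not overlap those of 2R or X, while the neighbours in this order overlap. These intervals cover counting error only and take regions as independent, although regions cluster. For chromosome 4, 0 of 39 regions were broad, an interval of up to 9.03%, so at this number its share was not distinguishable from the others.

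X had the highest ratio of broad domains to narrow regions. Narrow regions are here those of the combined list 1301 to 2500 bp wide that overlap both replicates, 1301 bp being the smallest width in either replicate list. There were 450 of them on the 6 arms. On X, 81 broad domains stood against 63 narrow regions, a ratio of 1.29. The ratio was 0.923 on 2R, 0.809 on 3R, 0.667 on 3L and 0.472 on 2L. The median domain width differed little between arms, from 8.58 kb on 3R to 9.11 kb on X.

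**Figure D1:**
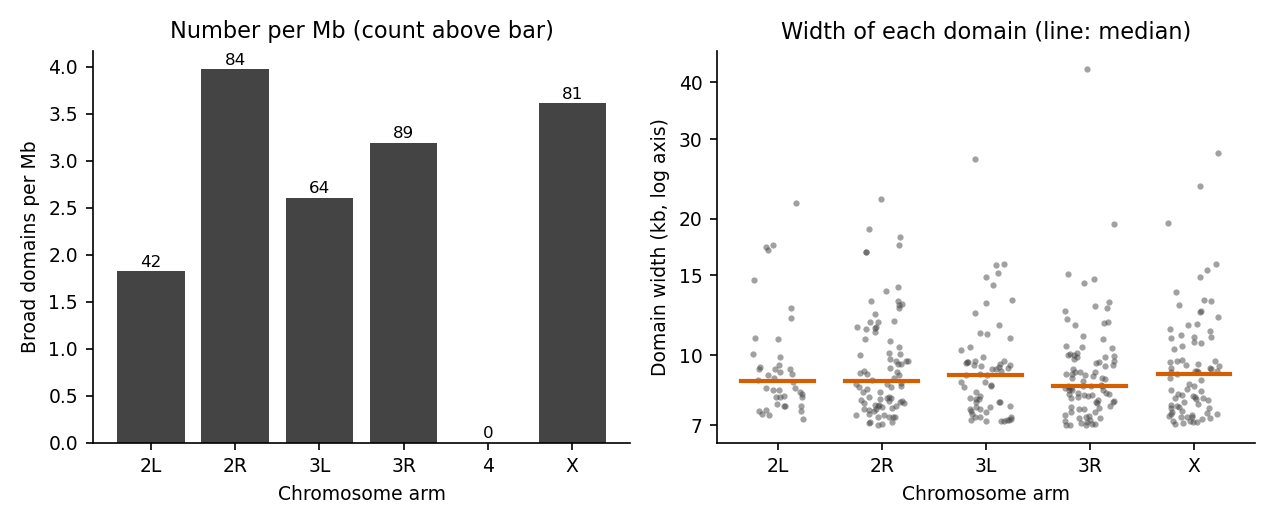
Left, broad domains per Mb on each chromosome arm, with the number of domains above each bar. Right, the width of every domain in kb on a log axis, 1 point per domain and a line at each arm's median: 2R and X have the most domains per Mb, 4 has none, and the arm medians lie between 8.58 and 9.11 kb.

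Along the 5 long arms, domains were spread from telomere to centromere with fewer in the last stretch. When each arm was cut into 5 equal parts, the part next to the telomere held 81 of the 360 domains (22.5%) and the part next to the centromere held 53 (14.7%). The 3 parts between them held 71, 75 and 80. Over all combined-list regions the shares of the first and last part were 21.3% and 17.5%, and over narrow regions 21.4% and 22.9%.

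Broad domains often had another broad domain nearby. The median gap to the next domain was 155 kb (quartiles 47.5 and 365 kb). A second domain lay within 50 kb of 156 of the 360 (43.3%, exact binomial interval 38.1 to 48.6) and within 100 kb of 216 (60.0%, interval 54.7 to 65.1). For the more numerous narrow regions, the shares with another narrow region nearby were 38.7% (interval 34.1 to 43.3) and 57.1% (interval 52.4 to 61.7), with a median gap of 174 kb. The share within 50 kb depends on how many regions a class holds and was 71.7% for a threshold of 5000 bp and 22.2% for 10000 bp. The classes differ in number and neighbours are not independent, so these values are given side by side and whether the classes differ in clustering was not tested.

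Chaining domains that lie at most 50 kb apart gave 64 chains that hold 156 domains, with 204 domains left alone. Of these chains, 47 held 2 domains, 7 held 3, 9 held 4 and 1 held 5. The chain of 5 was on X at 1925048 to 2066116, where domains filled 35.3% of 141 kb and had scores from 0.637 to 0.934. The most tightly filled chain of 4 was on 2R at 7486884 to 7551940, where domains filled 63.1% of 65.1 kb. At the other extreme, 20 of 122 windows of 1 Mb held no domain. The longest stretch between neighbouring domains was 2.98 Mb on 2L, from 7531358 to 10515330, in which 268 narrower combined-list regions lay.

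The sequence around broad domains had a higher median coverage than that around narrow regions, with the same median number of neighbours. Within 20 kb of either edge the median domain had 5 other combined-list regions (quartiles 4 and 6), and so did the median narrow region (quartiles 3 and 6). The flanking sequence was covered to a median of 36.0% around domains (quartiles 25.05 and 48.05%) and 27.2% around narrow regions (quartiles 17.1 and 38.3%). The quartile ranges overlap. Just 1 domain had no other region within 20 kb, against 16 of the 450 narrow regions.

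Many domains had another combined-list region close by. Whether such neighbours belong to 1 enriched stretch was not tested. Another combined-list region lay within 1000 bp of 186 domains (51.7%), against 40.3% of all combined-list regions and 32.7% of narrow regions. With regions closer than 1000 bp joined first, 790 stretches met the rule in place of 360. In 11 places that neighbour was itself a broad domain. The closest pair was on 3R, where the widest domain of all, at 12029148 to 12072058 (42.9 kb), and the one at 12072078 to 12091532 (19.5 kb) are 19 bp apart. Together they span 62.4 kb, which holds 9 regions of replicate 1 and 8 of replicate 2.

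Within a domain the replicate lists, as deposited, more often showed 2 or more regions than a single one. With replicate regions closer than 1000 bp joined, most domains had a single one, as given below. In replicate 1, 151 domains (41.9%) overlapped a single region, 146 overlapped 2 and 51 overlapped 3, while 12 overlapped 4 to 6. In replicate 2, 149 domains (41.4%) overlapped a single region, 165 overlapped 2 and 36 overlapped 3, while 10 overlapped 4 to 6. The mean was 1.81 ± 0.868 regions per domain in replicate 1 and 1.75 ± 0.792 in replicate 2 (SD over 360 domains). No replicate region overlapped more than 1 domain, so the 360 domains drew on 650 separate regions of replicate 1 and 631 of replicate 2. That was 15.4% and 11.8% of the regions in these lists and 22.4% and 20.4% of their covered length.

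The replicates often divided the same domain differently. A single region was found in both replicates for 82 domains, and 2 or more in both for 142. With replicate regions closer than 1000 bp joined, 70.3% of domains had a single one in replicate 1 and 81.7% in replicate 2. In 69 domains, as deposited, replicate 1 had a single region where replicate 2 had several, and in 67 it was the reverse. The number of regions was equal in 178.

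The number of replicate regions rose with domain width. Domains of 7 to 8 kb (n = 112) had a mean of 1.44 ± 0.566 regions in replicate 1 and 1.47 ± 0.569 in replicate 2 (SD over domains). The 22 domains of 15 kb or more had 3.27 ± 1.35 and 2.91 ± 1.23, and only 1 of them in replicate 1 and 2 in replicate 2 overlapped a single region. Coverage rose less: its median went from 53.1% to 67.8% in replicate 1 and from 78.9% to 87.4% in replicate 2 between these classes.

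Replicate 2 covered more of most domains. The median share of a domain covered was 61.7% in replicate 1 (quartiles 47.5 and 75.6%) and 82.0% in replicate 2 (quartiles 73.1 and 91.4%). Coverage was higher in replicate 2 in 306 domains and higher in replicate 1 in 54. Coverage was at least 50% in both replicates in 243 domains and at least 90% in both in 9. Replicate 2 had more regions over the whole genome too, 5359 against 4213, and the depth of either library is unknown. What part depth had in this difference was not tested. Over narrow regions the medians were closer, 77.3% and 83.7%, with higher coverage in replicate 2 in 291 of 450.

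**Figure D2:**
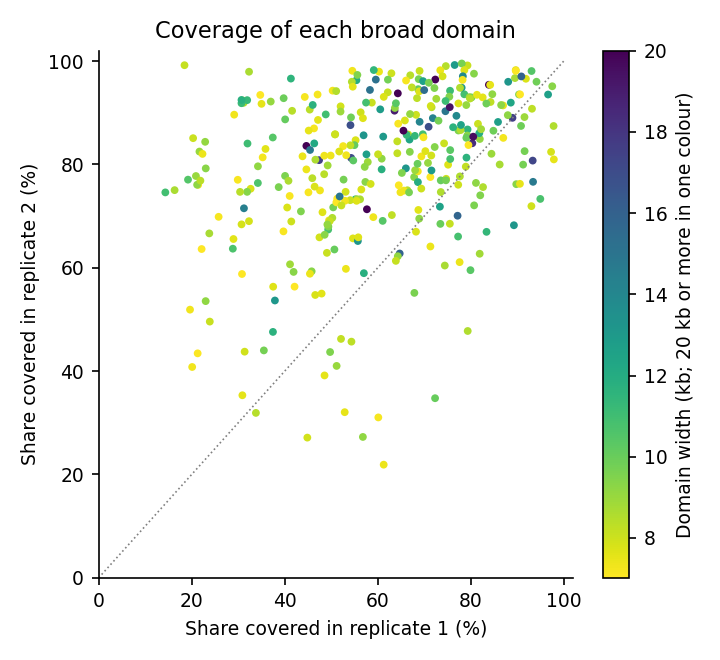
Each point is 1 of the 360 broad domains, placed by the share of its length covered in replicate 1 (horizontal axis, %) and in replicate 2 (vertical axis, %), with colour giving its width in kb. The 306 points above the dotted line of equal coverage are domains covered more in replicate 2.

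Of the total domain length, 56.0% was covered by both replicates and 13.7% by neither. Per domain, the share covered by both at once had a median of 55.2% (quartiles 40.8 and 70.4%). It was 0 in 4 domains, where the replicates support different parts. These lay on 2R at 7070304 to 7077598, on 3L at 20529818 to 20537718, and on X at 13143092 to 13150190 and 19495278 to 19503396. The fourth falls outside the naming rule and was added after its value had been seen. At the other end, the domain on 2L at 477850 to 487166 (9.3 kb) was a single region in each list, covered to 97.5% in replicate 1 and 95.1% in replicate 2.

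Replicate coverage was highest in the interior of domains and fell at their ends. With each domain cut into 10 equal parts, mean coverage in replicate 1 was 29.2% in the first, 74.1% in the fifth and 28.6% in the last. In replicate 2 it was 48.7%, 88.1% and 53.8%. The interior was flat. From the third to the eighth of these parts, coverage stayed at 68.9 to 74.6% in replicate 1 and at 87.6 to 89.6% in replicate 2. Narrow regions had a fuller middle, with 99.0% in replicate 1 and 99.1% in replicate 2 in the fifth part. A narrow region can hold little more than 1 replicate region of the minimum width, so this difference follows in part from the widths. Their first and last parts were covered to 27.1% and 25.8% in replicate 1, close to those of domains, and to 38.7% and 40.8% in replicate 2, less than those of domains. Each such part is longer in bases in a domain than in a narrow region, so equal shares are not equal lengths.

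**Figure D3:**
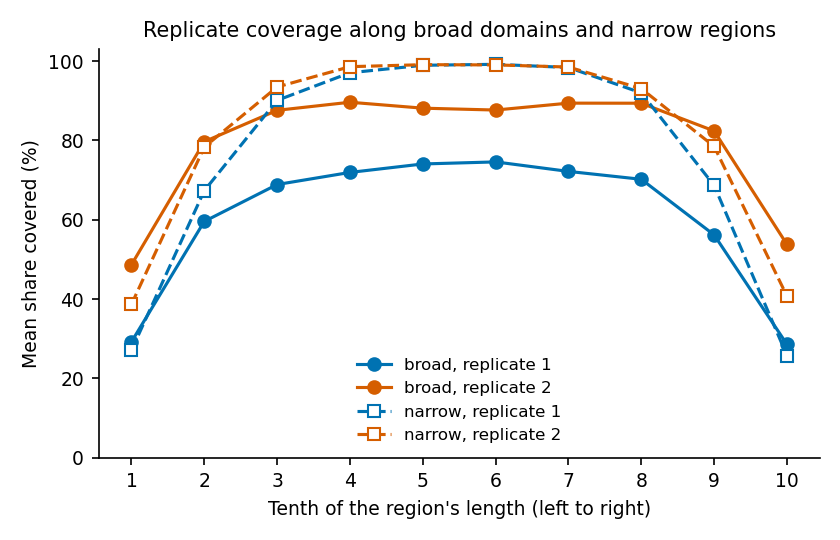
Mean share of sequence covered by replicate regions (%) in each of 10 equal parts of the region, from left to right on the chromosome, for the 360 broad domains (filled) and the 450 narrow regions (open) in replicate 1 (blue) and replicate 2 (orange). Domains are covered evenly in the middle, at up to 74.6% in replicate 1 and 89.6% in replicate 2, and less in the first and last part.

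The outermost replicate region usually ended inside the domain. The median distance from a domain edge inwards to the first replicate region was 1055 bp in replicate 1 (quartiles 362 and 2191 bp) and 371 bp in replicate 2 (quartiles 92 and 1057 bp). Of the 720 edges, 32.5% in replicate 1 and 56.8% in replicate 2 had the replicate edge within 500 bp. A replicate region reached beyond the domain at 24 edges in replicate 1 and 86 in replicate 2.

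Breaks between replicate regions inside domains were short, and those of replicate 1 were mostly bridged in replicate 2. Replicate 1 had 289 uncovered stretches between covered ones, in 209 domains, with a median of 721 bp (quartiles 332 and 1446 bp, longest 6463 bp). Replicate 2 had 270 in 210 domains, with a median of 455 bp (quartiles 149 and 1022 bp, longest 3100 bp). Of the sequence in replicate 1 breaks, 21.8% was uncovered in replicate 2 as well, against 9.32% of the domain sequence that replicate 1 did cover and 19.4% of all domain sequence, ends included. Of the sequence in replicate 2 breaks, 56.6% was uncovered in replicate 1, against 30.5% of the sequence that replicate 2 covered and 38.3% of all domain sequence. The shares for all domain sequence include the ends, where coverage was lower, whereas breaks lie between covered stretches. From the third to the eighth of the equal parts above, mean coverage was 87.6 to 89.6% in replicate 2. In replicate 1 it was 68.9 to 74.6% there. Breaks of either replicate were thus uncovered in the other more often than this interior. Whether breaks coincide between replicates beyond this was not tested. Counted as stretches, 158 of the 289 replicate 1 breaks and 75 of the 270 replicate 2 breaks were wholly covered in the other list.

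Most domains had no single replicate region as wide as the threshold. Of the 360 domains, 241 held no region of 7 kb or more in either replicate, and 28 held one in both. The replicate lists themselves had 42 and 116 regions of at least 7 kb on the 6 arms, of which 41 and 111 overlapped a broad domain. In the median domain the widest replicate region was 41.0% as long as the domain in replicate 1 and 60.8% in replicate 2.

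The widest domains showed these features in full. The 42.9-kb domain on 3R at 12029148 to 12072058 held 6 regions of replicate 1, from 3.27 to 6.66 kb wide with scores from 0.683 to 1.02. Replicate 2 had 5 regions there, from 2.22 to 13.9 kb wide with scores from 0.675 to 1.30. The highest score of replicate 2 fell on its region at 12059345 to 12064603, and a replicate 1 region at 12059593 to 12064166 with a score of 1.01 lay inside that stretch. The highest score of replicate 1, 1.02, fell elsewhere, at 12031163 to 12037397. This domain was covered to 72.4% in replicate 1 and 96.4% in replicate 2.

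On X, the 27.9-kb domain at 2175914 to 2203824 was divided into 4 regions in replicate 1 and 2 in replicate 2, with scores of 0.663 to 0.963 and 1.01 to 1.02. The first replicate 1 region started at 2181348 and the first of replicate 2 at 2176444, close to the domain's start. The 27.2-kb domain on 3L at 623492 to 650662 was mostly filled by a single replicate 2 region of 18.9 kb at 631808 to 650754, where replicate 1 had shorter ones, 5 in the whole domain. In the 23.6-kb domain on X at 7584440 to 7608054, both replicates had 1 long region towards the right end, of 11.7 kb in replicate 1 (score 0.844) and 12.1 kb in replicate 2 (score 0.847), and short ones to its left with scores of 0.465 to 0.636. The 22.1-kb domain on 2R at 8472630 to 8494758 had 3 regions in each list and left 22.0% of its length uncovered in both.

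Next in width came domains on 2L at 20791366 to 20813092 (21.7 kb), on X at 10621584 to 10641136 (19.6 kb), the second of the close pair on 3R (19.5 kb), and on 2R at 18560564 to 18579510 (18.9 kb) and 5428378 to 5446638 (18.3 kb). The domain on 2L had the lowest score of these 10 widest, 0.514, ranked 2404 among the 9341 regions. It was covered to 44.7% by 4 regions in replicate 1 and to 83.6% by 5 in replicate 2. The one on 2R at 5428378 held 6 regions in replicate 1, the first of them the highest-scoring with 0.963, and the same end was highest in replicate 2 with 0.878.

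**Figure D4:**
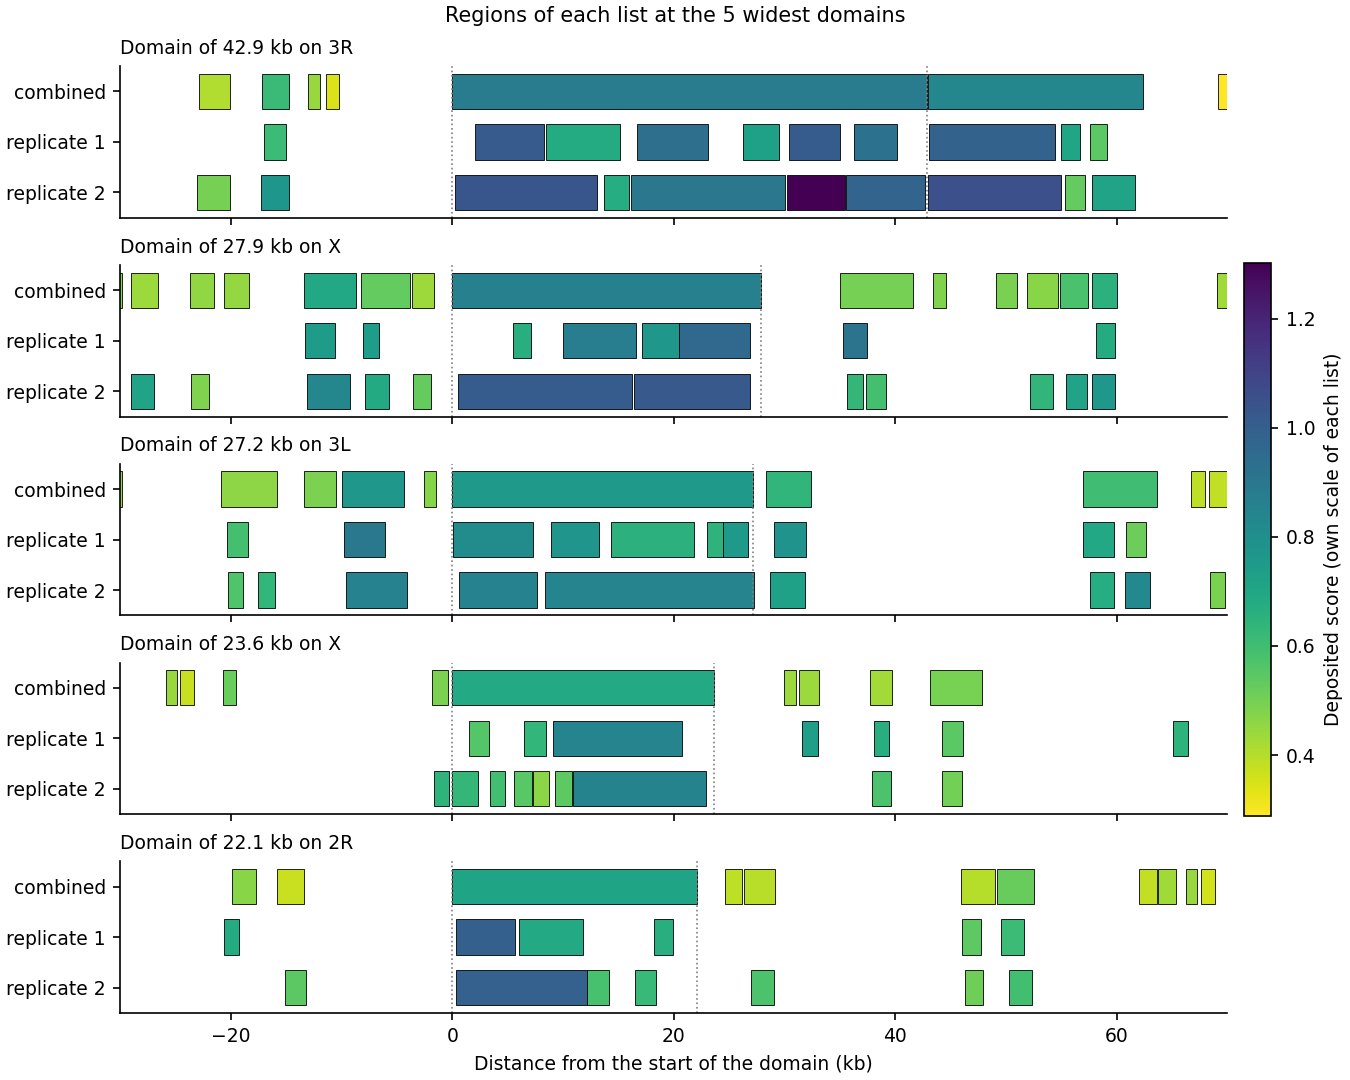
Regions of the combined list and of each replicate at the 5 widest domains, drawn to scale as boxes against distance from the domain start in kb, over 30 kb before to 70 kb after that start. Dotted lines mark the domain's ends. Colour gives the authors' score on each list's own scale. In the top panel the 42.9-kb domain on 3R is followed after 19 bp by the domain of 19.5 kb.

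Broad domains had higher scores than narrow regions in all 3 lists. A domain's value in a replicate is the highest score among the replicate regions overlapping it. In replicate 1 the median was 0.726 for domains (quartiles 0.663 and 0.833) and 0.571 for narrow regions (quartiles 0.519 and 0.631), which differ by 0.155. For replicate 2 these were 0.811 (quartiles 0.718 and 0.897) and 0.555 (quartiles 0.503 and 0.624), a difference of 0.255. In the combined list medians were 0.642 (quartiles 0.558 and 0.743) and 0.473 (quartiles 0.426 and 0.520), a difference of 0.169. The quartile ranges of the 2 classes do not overlap in any list. Over all regions on the arms the quartile range was 0.557 to 0.700 in replicate 1, which overlaps that of domains. It was 0.550 to 0.714 in replicate 2 and 0.392 to 0.517 in the combined list, without overlap. Score and width come from the same region calls, so no test was made. Against all regions under 7000 bp in both replicates the differences were smaller, 0.0966 in replicate 1, 0.155 in replicate 2 and 0.101 in the combined list.

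Nearly all members shared this, but a value above the narrow median is not particular to domains. The value of 344 domains was above the median of narrow regions in both replicates, and none was at or below it in both. Above the upper quartile of narrow regions were 301 domains in replicate 1 and 334 in replicate 2. Regions of intermediate width in both replicates (over 2500 and under 7000 bp, n = 2174) lay in between. Their medians were 0.640 in replicate 1, 0.677 in replicate 2 and 0.558 in the combined list. Their upper quartiles, 0.719, 0.761 and 0.632 in this order, were above the lower quartiles of domains. Even the lower quartiles of the intermediate class, 0.577 in replicate 1 and 0.594 in replicate 2, were above the narrow medians. So were the medians over all regions of the replicate lists on the arms, 0.623 and 0.622.

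Domains were frequent in the highest-scoring decile of each list, though the single strongest sites were not always broad. By definition 10.0% of regions fell in this decile in each of the 3 lists. Among domains, 119 of 360 (33.1%) reached it in replicate 1, 169 (46.9%) in replicate 2 and 208 (57.8%) in the combined list. Among narrow regions these were 11 (2.44%), 14 (3.11%) and 28 (6.22%) of 450. Among the 2174 regions of intermediate width in both replicates they were 252 (11.6%), 312 (14.4%) and 622 (28.6%). The base of 10.0% is over all regions of a list, whether or not they are in both replicates. In replicate 1 the highest score of a narrow region, 1.84, exceeded that of any domain, 1.68. In replicate 2 the highest score on the arms, 1.93, belonged to a domain. In the combined list the highest score was 3.40 over all regions and 1.78 for a narrow region, against 1.37 for a domain, and the highest-scoring domain ranked 26.

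A domain with several regions has more chances of a high value, so the regions were also counted singly. Of the 650 replicate 1 regions in domains, 140 (21.5%) were in the highest-scoring decile, against 7.90% of the 3559 regions outside. In replicate 2 it was 187 of 631 (29.6%), against 7.39% of 4723. The regions in domains were also wider, with a median of 2601.5 bp against 1904 bp outside in replicate 1, and 3841 against 2043 bp in replicate 2. With the mean over overlapping regions weighted by length, the difference between domains and narrow regions was 0.124 in replicate 1 and 0.211 in replicate 2.

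Short replicate regions in broad domains, in contrast, scored almost like replicate regions of the same width range outside them. The outside regions here are not the narrow class defined above, whose medians were lower, 0.571 in replicate 1 and 0.555 in replicate 2. Among replicate 1 regions of up to 2500 bp, the median score was 0.607 for the 306 that overlap a domain (quartiles 0.553 and 0.658) and 0.594 for the 2779 that do not (quartiles 0.536 and 0.656). In replicate 2 it was 0.596 for 191 (quartiles 0.551 and 0.642) and 0.577 for 3226 (quartiles 0.522 and 0.637). These differences of 0.0127 and 0.0192 are small beside the spread within each class. On X they had the opposite sign, -0.0210 over 67 and 476 regions in replicate 1 and -0.00371 over 50 and 620 in replicate 2.

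**Figure D5:**
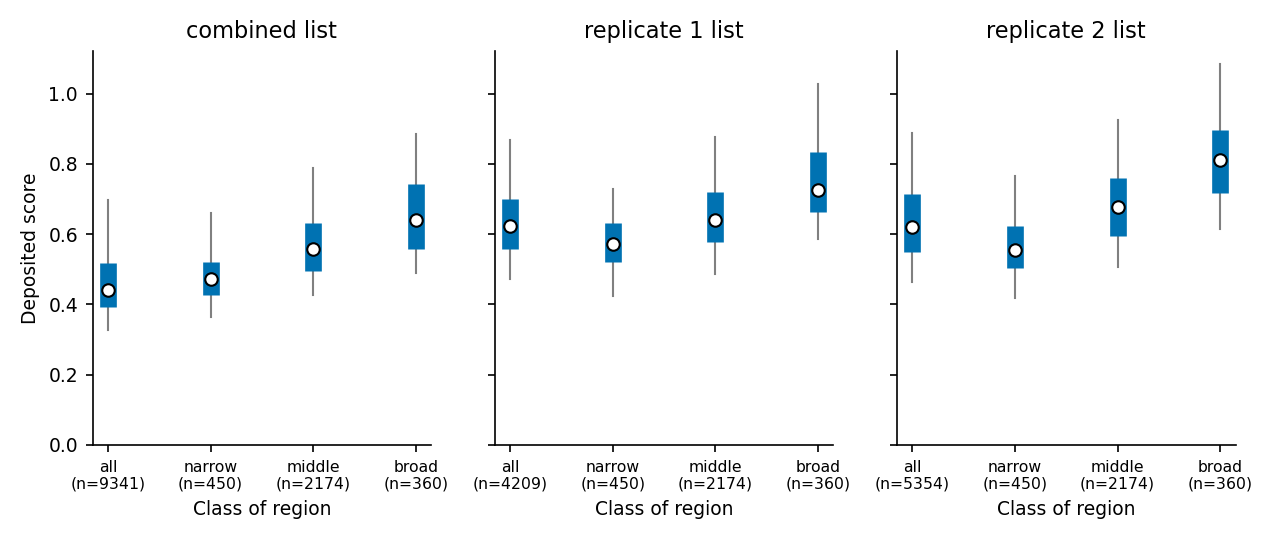
Authors' score by class of region in the combined list and in each replicate list, where, in the replicate panels, the 3 width classes take the highest score of the overlapping regions. The circle is the median, the thick bar spans the quartiles, and the thin line runs from percentile 5 to percentile 95. Narrow is 1301 to 2500 bp, middle up to 7 kb and broad 7 kb or more, all in both replicates, and all is every region of the list on the 6 arms. Scores rise from narrow to broad in each panel, and the lists are not on a common scale.

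Scores varied within domains, and their ranks went together between replicates. In domains with 2 or more regions, the highest and lowest score differed by a median of 0.135 in replicate 1 (209 domains) and 0.155 in replicate 2 (211 domains). The highest-scoring region was also the widest in 156 of these 209 and 166 of these 211. Of the 142 domains with several regions in both replicates, the highest-scoring ones overlapped each other in 109. With few regions per domain many would overlap whatever their scores, and how many was not counted. Across the 360 domains, the highest scores of the replicates had a Spearman rho of 0.719, and over the 450 narrow regions 0.317. These values describe regions of the same libraries. Both classes were chosen by width, and scores of narrow regions spread less (SD 0.118 in replicate 1 and 0.124 in replicate 2) than those of domains (0.153 and 0.159). The 2 rho values are therefore not read as a difference in agreement between replicates.

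Among domains, width was only loosely related to score. Spearman's rho of width was 0.264 with the combined score, 0.269 with the highest score in replicate 1 and 0.275 with that in replicate 2 (n = 360 domains). From the 7 to 8 kb class to that of 15 kb or more (22 domains), the median highest score rose from 0.692 to 0.929 in replicate 1 and from 0.750 to 0.875 in replicate 2. Wider domains hold more regions and so more chances of a high value. With the mean weighted by length the medians rose from 0.680 to 0.837 and from 0.724 to 0.843. The rho of width with that mean was 0.195 in replicate 1 and 0.233 in replicate 2. The combined score went more closely with coverage, with a rho of 0.684 for the share covered in replicate 1 and 0.463 for replicate 2.

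The highest-scoring domain was on 3R at 2637300 to 2649794 (12.5 kb, combined score 1.37), which ranked 26 in the combined list, 2 in replicate 1 and 1 in replicate 2 among regions on the 6 arms. Its right part carried the signal in both, a region of 7.56 kb with a score of 1.68 in replicate 1 and one of 6.00 kb with a score of 1.93 in replicate 2. Its left part scored 0.656 and 0.622 in regions that did not coincide, at 2637520 to 2639124 and 2639926 to 2642900. It stood apart from its surroundings, with a single other combined-list region within 20 kb and 5.16% of the flanks covered.

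It was followed by 3 domains on 2L. The one at 477850 to 487166 had a combined score of 1.27 and highest scores of 1.17 in replicate 1 and 1.40 in replicate 2. That at 11997172 to 12014478 (17.3 kb) had 1.19, 1.27 and 1.39, and that at 2191876 to 2204562 (12.7 kb) had 1.11, 1.04 and 1.23. The fifth was on 3R at 13442396 to 13451860 (9.5 kb) with 1.10, 1.36 and 1.31. The highest-scoring domains of the other arms were on 3L at 3090198 to 3099612 (0.988, 1.42 and 1.30), on X at 7192650 to 7204320 (0.997, 1.10 and 1.205) and on 2R at 13276754 to 13284690 (0.969, 1.06 and 1.14). Arm 2L, which had the fewest domains per Mb of the long arms, thus held 3 of the 5 highest-scoring ones.

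Domains on X had higher typical scores than autosomal ones, as narrow regions on X did. The median highest score in replicate 1 was 0.789 over the 81 domains on X and 0.710 over the 279 on autosomes, and in replicate 2 it was 0.845 and 0.794. For narrow regions it was 0.662 on X (n = 63) and 0.558 on autosomes (n = 387) in replicate 1, and 0.630 and 0.550 in replicate 2. The difference between X and autosomes was 0.0793 for domains and 0.104 for narrow regions in replicate 1, and 0.0516 and 0.0798 in replicate 2. Broad domains exceeded narrow regions on X and on autosomes alike, by 0.127 and 0.152 in replicate 1 and by 0.216 and 0.244 in replicate 2.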

How the data were processed

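The deposited files are 3 GFF3 lists of enriched regions, 1 for each of the 2 ChIP replicates and 1 combined, on FlyBase release 5 per the file headers. The aligner Bowtie, version 0.12.7, appears in the submitters' processing notes. For the caller, its settings, the read filters and any pooling of reads, details are not given in the sources. Each region has a deposited score of unnamed scale, which is the authors' value. No read counts were used here, so depth is unknown.

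The members and lists were chosen with earlier results of these data known. Overlap meant at least 1 bp, coverage was counted per base, and 1 end in exponent form was read in full. Python 3.11.15, numpy 2.4.6, pandas 2.3.3 and scipy 1.17.1 were used, with 95% exact (Clopper-Pearson) binomial intervals. Interval operations were tested on simulated data. No chance test was made. Named domains are the 10 widest, the 5 highest-scoring, the widest and highest-scoring of each arm, the 3 least covered by both replicates, the 3 with most replicate regions, and 3 regions on each side of the width threshold. Alternatives were other widths, merging, 50% coverage, leaving out a replicate or X, and other score summaries. The gene table is on Release 6 and was not used.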

Additional observations from a re-analysis of the deposited data

How the results depend on the processing

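Of 60 alternative values, 43 stayed near the reported one, 17 moved and none reversed. Near means within 1.5 times for the number of domains, within the 95% interval for shares of domains and within 1 SD between the replicates for the rest. That SD rests on 2 replicates and was wide, 14.3 percentage points for coverage and 0.0707 for the score differences from narrow regions. A value counted as near can therefore still differ visibly. The number of domains depended on width and merging: 888 at 5000 bp or more, 99 at 10000 bp or more and 790 after joining combined-list regions closer than 1000 bp. It was 243 where each replicate had to cover 50%, and 360 to 365 when 1 replicate was left out. The share with another domain within 50 kb moved with that number, to 68.1% after merging, 71.7% at 5000 bp and 22.2% at 10000 bp, and within 100 kb to 82.8%, 85.5% and 25.3%. The share on 2R was 28.3% at 10000 bp, against 23.3%. Domains with a single region rose to 70.3% in replicate 1 and 81.7% in replicate 2 when replicate regions closer than 1000 bp were joined. They were 61.3% and 60.6% at 5000 bp, and 21.2% in both at 10000 bp. Against all regions under 7000 bp in both replicates, the score difference was smaller in all 3 lists, 0.0966 in place of 0.155 in replicate 1, 0.155 in place of 0.255 in replicate 2 and 0.101 in place of 0.169 in the combined list. No paired analysis was possible because no test was made and the inputs have no list here. Without read counts, precision within a domain is unknown.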

Other observations

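Not every wide region of a replicate lay in a broad domain. Replicate 1 had 1 region of 7 kb or more outside them, on 2L at 20819764 to 20826807 (7.04 kb, score 0.959), not far to the right of the 21.7-kb domain of that arm. Replicate 2 had 5, of 7.01 to 7.69 kb, on 2R at 8810822 to 8817827 and 11816658 to 11823700, on 3L at 1576364 to 1584055 and 5758450 to 5765990, and on X at 5636535 to 5643702.

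Where 3 or more replicate regions lay in a domain, the highest-scoring one was neither the first nor the last in 17 of 63 domains in replicate 1 and in 23 of 46 in replicate 2. Most of these domains, 51 and 36, held 3 regions, of which only 1 can be an inner one. The share that the number of regions alone would give was not counted, so nothing is read from these counts about position.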
